A study of Homo sapiens with 6 samples.

Results

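Glycolysis and the response to low oxygen were followed through 34 genes in SU-DHL-8, an established human cell line of diffuse large B-cell lymphoma, a cancer of B lymphocytes. The 34 were taken by gene name from the 35974 genes of the deposited table, and all were found. They comprise 17 glycolytic enzymes, 5 regulators of flux into and out of glycolysis, and 12 genes of the hypoxia response. Libraries came from cells given the solvent DMSO (3 libraries) or the DNMT1 inhibitor GSK3685032 (3 libraries). DNMT1 maintains DNA methylation when cells divide. All 6 carry the label DNMT1 wild type and come from 1 cell line, so other lymphomas are not represented. The treatment label of inhibitor replicate 1 reads GSK3685032, whereas those of replicates 2 and 3 read GSK3685033 and GSK3685034. The series design names GSK3685032 only, and the 3 were kept as 1 group. The sources used here state neither dose nor duration. They also do not say whether replicates were separate cultures, and the p-values therefore describe library-to-library spread that may be technical.

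Glycolysis splits glucose to pyruvate in the cytosol, and lactate dehydrogenase converts pyruvate to lactate and back. Proliferating B-cell lymphomas run the pathway at high rates even when oxygen is present. When oxygen is short, the transcription factor subunit HIF-1α escapes hydroxylation by the EGLN enzymes and is no longer destroyed. It then raises transcription of many glycolytic enzymes and of genes for blood vessel growth, mitochondrial turnover and collagen hydroxylation. The glycolytic genes are therefore also classed among hypoxia targets, and the comparison here asked whether the enzymes and the other hypoxia response genes moved together when DNMT1 was inhibited.

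Total estimated counts lay between 53846028 and 75304441 per library, and the first principal component (89.1% of the variance) separated the groups. All 8 B-cell markers examined, among them CD79A and PAX5, reached 1 FPKM (fragments normalised to transcript length and library size) in every DMSO library, and 7 of 8 did so in every inhibitor library. Summed levels of epithelial markers went from at most 0.0144 to between 2.74 and 4.15 FPKM. Most of that was KRT18, at a mean of 2.65 FPKM with the inhibitor, beside 0.44 for EPCAM, 0.21 for KRT8 and 0.00 for CDH1. The erythroid marker in the table went from 0 to between 5.45 and 7.55 FPKM. The part of these markers in the results below was not tested.

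HIF-1 binds DNA at the core ACGTG or GCGTG. Stretches of 60 bases before the transcription start are shown for members that rose (BNIP3 and PFKL), fell (LDHA and TPI1), changed little (PGK1) or did not pass the test (HK2). Only members with a core were shown, each by the stretch holding the most cores, so its presence beside each outcome was fixed by that choice. The windows of LDHB, which rose, and of PGAM1 and PKM, which fell, held no core. Sequences are from RefSeq on GRCh38.p14, 5′ to 3′ on the gene's strand, with capitals marking the core on either strand. Stretches were placed outside the gene's GENCODE exons. The HK2, PGK1 and TPI1 stretches precede a downstream start and lie within the annotated span of their gene.
BNIP3, chr10:131982015-131982074, minus strand: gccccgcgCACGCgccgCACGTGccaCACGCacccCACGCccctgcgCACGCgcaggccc
PFKL, chr21:44299861-44299920, plus strand: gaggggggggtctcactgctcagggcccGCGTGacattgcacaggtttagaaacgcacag
HK2, chr2:74834971-74835030, plus strand: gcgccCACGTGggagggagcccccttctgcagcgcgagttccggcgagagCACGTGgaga
PGK1, chrX:78104023-78104082, plus strand: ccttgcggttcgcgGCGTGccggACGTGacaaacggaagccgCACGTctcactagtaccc
LDHA, chr11:18394328-18394387, plus strand: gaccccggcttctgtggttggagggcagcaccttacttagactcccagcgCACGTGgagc
TPI1, chr12:6868035-6868094, plus strand: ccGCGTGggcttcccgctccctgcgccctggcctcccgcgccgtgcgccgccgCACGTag

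RefSeq windows were matched for 30 of the 34 members, as 53 windows because several genes have more than 1 start. VEGFA, PFKFB2, BNIP3L and NDRG1 had no entry. In the 250 bases before the start, ACGTG or GCGTG on either strand was found in 58.5% of the members' windows and in 43.2% of all 35114 windows of that length. The palindrome CACGTG, which holds ACGTG on both strands and counts as 2 matches, was found in 15.1% of the members' windows and in 6.35% of all windows. It is present in the stretches of BNIP3, HK2 and LDHA. Of windows belonging to members that rose, 61.9% (13 of 21) held the core. Of those belonging to members that fell, 70.6% (12 of 17) did, so the core was found beside both directions. The 21 windows came from 13 genes and the 17 from 12, so genes with several starts, such as HK1, count more than once in these shares. The members' windows were also richer in CpG, the dinucleotide that DNMT1 methylates, with a median of 25 CpG in the same 250 bases against 11 in all windows. Each form of the core itself holds a CpG, so the core shares are not independent of CpG content. They were not adjusted for it. By class the median was 22 for glycolytic enzymes, 29 for regulators and 25.5 for hypoxia response genes. By direction it was 16 over windows of members that rose and 27 over windows of members that fell, with no test of the difference. HK1 alone gave windows with 0, 1, 1, 1, 5, 11 and 30 CpG among those that rose, so this gene weighs on that median.

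Glycolytic enzymes did not move together. Among the 17, all tested, 6 rose and 7 fell in the inhibitor libraries by edgeR's quasi-likelihood test at an adjusted p of 0.05, and 4 were not called. Across all 20783 tested genes 65.4% were called (38.1% higher and 27.3% lower), and 82.1% of those with a mean of at least 10 FPKM were (26.9% higher and 55.2% lower), so the number of enzymes called is near the background. Their median log2 change was -0.09, against 0.14 over all tested genes and -0.22 over tested genes at a mean of at least 10 FPKM. Of the 17, 1 enzyme, PGAM1, was called with a change of at least 2-fold. So were 33.4% of all tested genes and 14.4% of those at a mean of at least 10 FPKM. The median of the enzymes turned positive under other scalings (0.08 with upper-quartile scaling, 0.12 with quantile normalization and 0.0069 with testing restricted to genes that reached 1 FPKM in 3 or more libraries, the FPKM filter below). The median of all tested genes itself went from 0.14 to 0.31 with upper-quartile scaling.

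Of 11 hypoxia response genes tested, 8 were higher and 3 lower, where 38.1% and 27.3% of all tested genes were, and the groups did not overlap in any of the 11 (71.7% of all tested genes had groups that did not overlap). The median log2 change was 0.65, and 4 of the 11 were called with a change of at least 2-fold, as were 33.4% of all tested genes. ADM and P4HA2 had no DMSO counts and could pass the filter on low counts only through their inhibitor counts, so their calls were nearly fixed in advance. Without them, a choice made after seeing the data, 6 were higher and 3 lower of 9, and the median was 0.53. Of these 9, 2 (22.2%) were called with a change of at least 2-fold. The 33.4% over all tested genes still includes genes without DMSO counts, so it is not a like comparison for these 9. EGLN3 was too low to be tested. Of the 5 regulators, 2 were higher and 3 lower, with a median of -0.25.

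**Figure D1:**
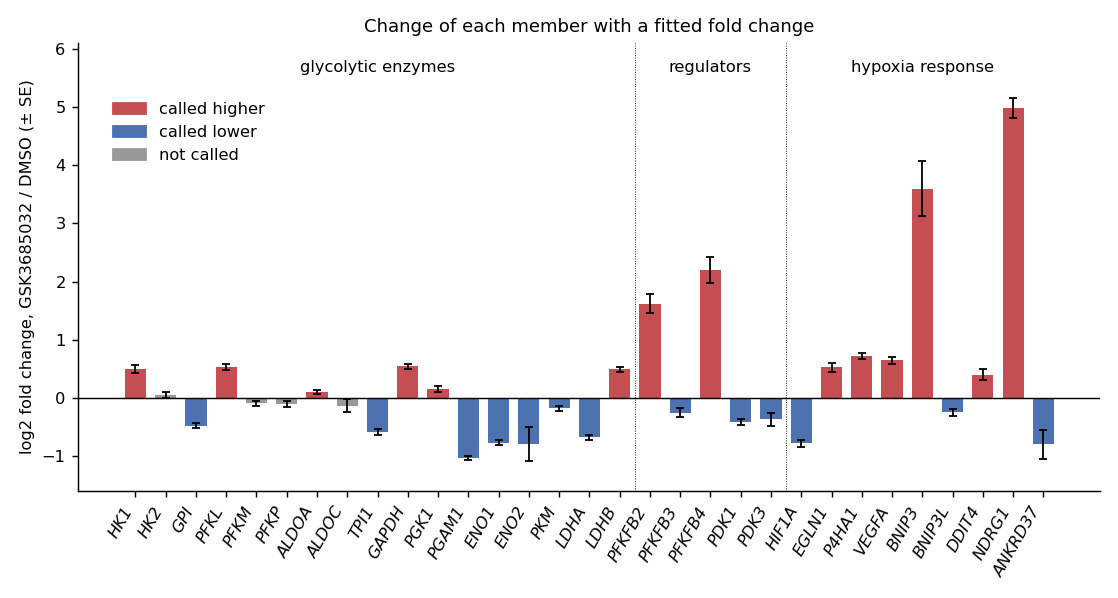
Log2 fold change with its standard error for the 31 members with a fitted fold change (ADM and P4HA2, at 0 with DMSO, and the untested EGLN3 are left out), in pathway order for the enzymes. Enzymes lie between -1.02 and 0.55 with both signs, while BNIP3 and NDRG1 reach 3.59 and 4.98. The signs of PFKM, PFKP and ALDOC, none of which was called, turn under upper-quartile scaling.

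The first enzymes trap glucose in the cell and commit it to glycolysis. HK2, the hexokinase typical of proliferating and tumour cells, held most of the hexokinase message, with 30.2, 31.3 and 32.4 FPKM in DMSO and 31.9, 33.7 and 32.5 in inhibitor libraries. The HK2 groups overlap, and the gene was not called (log2 change 0.05 with an SE of 0.043, adjusted p = 0.298 by edgeR), although it was called higher with upper-quartile scaling (0.23, adjusted p = 0.000998), with quantile normalization (0.24, limma adjusted p = 0.00115) and with the FPKM filter (0.15, adjusted p = 0.0099). HK1, the housekeeping hexokinase, measured 5.21, 4.58 and 5.31 FPKM under DMSO and 7.16, 7.22 and 7.02 under the inhibitor. Every inhibitor library lay above every DMSO library, a 1.41-fold rise (log2 change 0.50 with an SE of 0.067, adjusted p = 0.000114 by edgeR). The HK1 share of hexokinase FPKM accordingly went from 13.8% ± 0.986 to 17.9% ± 0.372 (SD, n = 3 per group). GPI, which isomerises glucose 6-phosphate, fell by 27.8%, from 21.7 ± 0.335 to 15.8 ± 0.584 FPKM (edgeR adjusted p = 9.01e-06).

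Phosphofructokinase, the committed step, is built from liver, muscle and platelet type subunits. PFKL, the liver type, rose from 9.95, 8.91 and 9.72 FPKM to 13.96, 13.75 and 13.83, 1.45-fold (log2 change 0.53 with an SE of 0.050, adjusted p = 1.01e-05 by edgeR). The muscle type PFKM stood at 28.1 ± 1.21 and 26.6 ± 0.191 FPKM and the platelet type PFKP at 25.4 ± 1.69 and 23.9 ± 0.115. Neither was called (log2 changes -0.09 for both, edgeR adjusted p = 0.102 and 0.138), and the sign of both turned with upper-quartile scaling (0.08 each), the FPKM filter and quantile normalization (PFKM 0.12, limma adjusted p = 0.0281, called higher). PFKP was called lower without DMSO replicate 2 (log2 change -0.14, edgeR adjusted p = 0.016). PFKM overlaps SENP1 on the other strand, whose row went from a mean of 15.1 to 6.34 FPKM, and the sources used here do not say whether counting used strand. Summed over the 3 subunits, phosphofructokinase FPKM overlapped between groups (63.1 ± 3.23 and 64.4 ± 0.223), while the PFKL share went from 15.1% ± 0.372 to 21.5% ± 0.210 with no overlap.

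Aldolase cleaves the phosphorylated sugar into trioses. ALDOA measured 84.97, 84.7 and 88.8 FPKM under DMSO and 91.2, 94.0 and 93.6 under the inhibitor (log2 change 0.10 with an SE of 0.038, adjusted p = 0.0379 by edgeR). Its groups are close, and the call ended in 5 of the 6 fits that left out a library, all but the one without DMSO replicate 3 (adjusted p 0.0624 to 0.167). It also ended with the replicate number as a block (adjusted p = 0.0779), without a filter on low counts (0.0503) and with inhibitor replicate 1 alone (0.152). A same-strand gene that overlaps it, ENSG00000285043, went from a mean of 16.1 to 11.3 FPKM, so reads of the pair may be shared. ALDOC, the brain type, had group means of 5.25 ± 0.487 and 4.82 ± 0.303 FPKM and did not pass (log2 change -0.13, edgeR adjusted p = 0.331, with the sign turned to 0.04 by upper-quartile scaling). ALDOC overlaps RSKR, a same-strand gene at a mean of 3.09 FPKM under DMSO and 2.48 under the inhibitor, so reads may be shared there too.

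The triose steps moved in opposite directions. GAPDH, which oxidises glyceraldehyde 3-phosphate and is often used as a reference gene, had the highest level of all 34 genes. It measured 1018, 1077 and 1009.7 FPKM under DMSO and 1584, 1471 and 1496 under the inhibitor. The libraries of the 2 groups were far apart, a 1.46-fold rise (log2 change 0.55 with an SE of 0.049, adjusted p = 7.19e-06 by edgeR). TPI1, which interconverts the trioses, fell from 388, 388 and 381 FPKM to 276, 253 and 251, by 32.8% (log2 change -0.57 with an SE of 0.051, adjusted p = 7.11e-06 by edgeR). GAPDH lies on chromosome 12 at 6534512 to 6538371 and TPI1 on the same chromosome at 6867119 to 6870948 (GRCh38), and the 2 changed with opposite signs. The ratio of GAPDH to TPI1 FPKM went from 2.68 ± 0.0809 to 5.83 ± 0.113.

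PGK1, which makes the first ATP, measured 43.1, 44.5 and 46.2 FPKM under DMSO and 50.3, 52.1 and 46.9 under the inhibitor (log2 change 0.15 with an SE of 0.052, adjusted p = 0.0277 by edgeR). The lowest inhibitor library is close to the highest DMSO library, and the call ended without DMSO replicate 1 or 2 or inhibitor replicate 1 or 2 (adjusted p 0.0547 to 0.12) and with the replicate block (adjusted p = 0.0605). PGAM1, phosphoglycerate mutase, showed the largest fall among the enzymes. Its levels were 92.7, 93.8 and 94.8 FPKM under DMSO and 45.8, 46.7 and 46.7 under the inhibitor. Replicates differed by little, and the level fell by 50.8% (log2 change -1.02 with an SE of 0.037, adjusted p = 3.46e-08 by edgeR).

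ENO1, the main enolase, fell by 41.2%, from 494, 491 and 505 FPKM to 308, 289 and 284 (log2 change -0.77 with an SE of 0.047, adjusted p = 5.99e-07 by edgeR). The neuronal enolase ENO2 was barely present, at 0.277 ± 0.0584 and 0.157 ± 0.0153 FPKM (log2 change -0.79 with an SE of 0.290, adjusted p = 0.0362 by edgeR). Its call ended without DMSO replicate 3 or any 1 of the inhibitor replicates (adjusted p 0.0605 to 0.133), with the replicate block (0.0898), with DESeq2 (0.106), with upper-quartile scaling (0.0882), without a filter on low counts (0.0556) and with inhibitor replicate 1 alone (0.149). ENO2 overlaps LRRC23, a same-strand gene at a mean of 2.27 and 1.92 FPKM. PKM, pyruvate kinase, fell by 11.3%, from 98.1 ± 0.715 to 87.3 ± 2.61 FPKM (log2 change -0.17 with an SE of 0.041, adjusted p = 0.00396 by edgeR), and was not called with upper-quartile scaling (log2 change -0.0018, adjusted p = 0.97) or the FPKM filter (-0.08, adjusted p = 0.0803). The table does not separate the M1 and M2 splice forms of PKM.

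**Figure D2:**
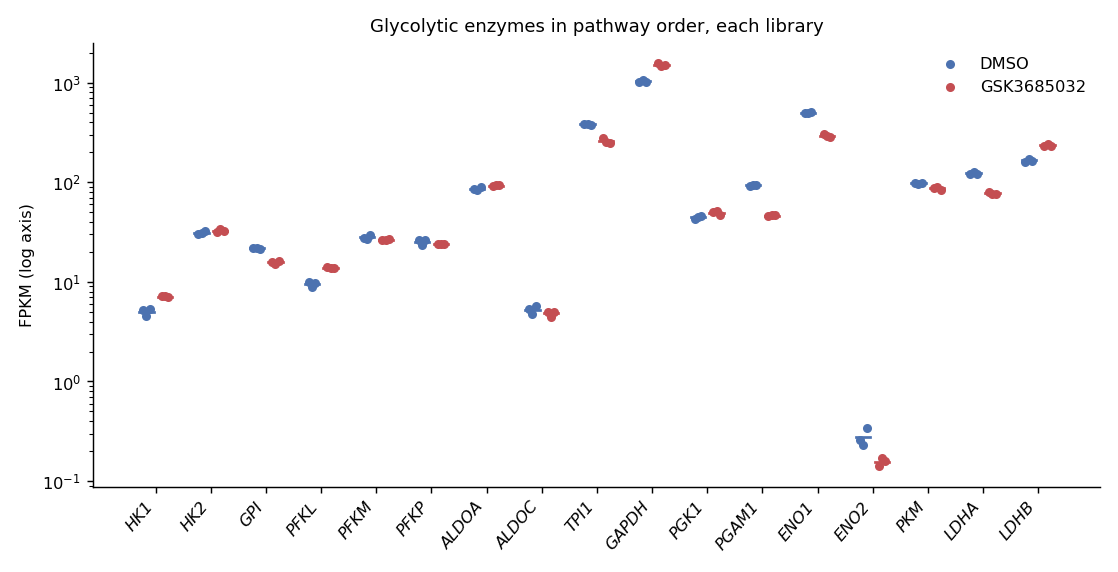
FPKM of the 17 glycolytic enzymes in each library on a log axis, in pathway order, with DMSO in blue, GSK3685032 in red and a line at each group mean. The groups separate downward for GPI, TPI1, PGAM1, ENO1 and LDHA and upward for HK1, PFKL, GAPDH and LDHB. They also do not overlap for PFKM, PKM and ENO2 (downward) and ALDOA and PGK1 (upward), whose calls were absent or ended in some alternatives. HK2 libraries, at 30.2 to 33.7 FPKM, overlap.

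Lactate dehydrogenase is a tetramer of LDHA and LDHB subunits. The LDHA form favours reduction of pyruvate to lactate, and the LDHB form favours the reverse reaction. LDHA fell from 120, 128 and 121 FPKM to 79.8, 76.6 and 76.6, by 37.2% (log2 change -0.67 with an SE of 0.046, adjusted p = 1.19e-06 by edgeR). LDHB rose from 161, 171 and 166 FPKM to 230, 241 and 234, 1.41-fold (log2 change 0.49 with an SE of 0.040, adjusted p = 3.76e-06 by edgeR). Every library of a group lay on the same side of the other group for both genes. The LDHB share of the summed FPKM was 57.3%, 57.2% and 57.8% under DMSO and 74.2%, 75.9% and 75.4% under the inhibitor. The ratio of LDHA to LDHB FPKM went from 0.741 ± 0.00956 to 0.331 ± 0.0154. The summed FPKM of both subunits moved much less, from 289 ± 9.31 to 313 ± 4.67.

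**Figure D3:**
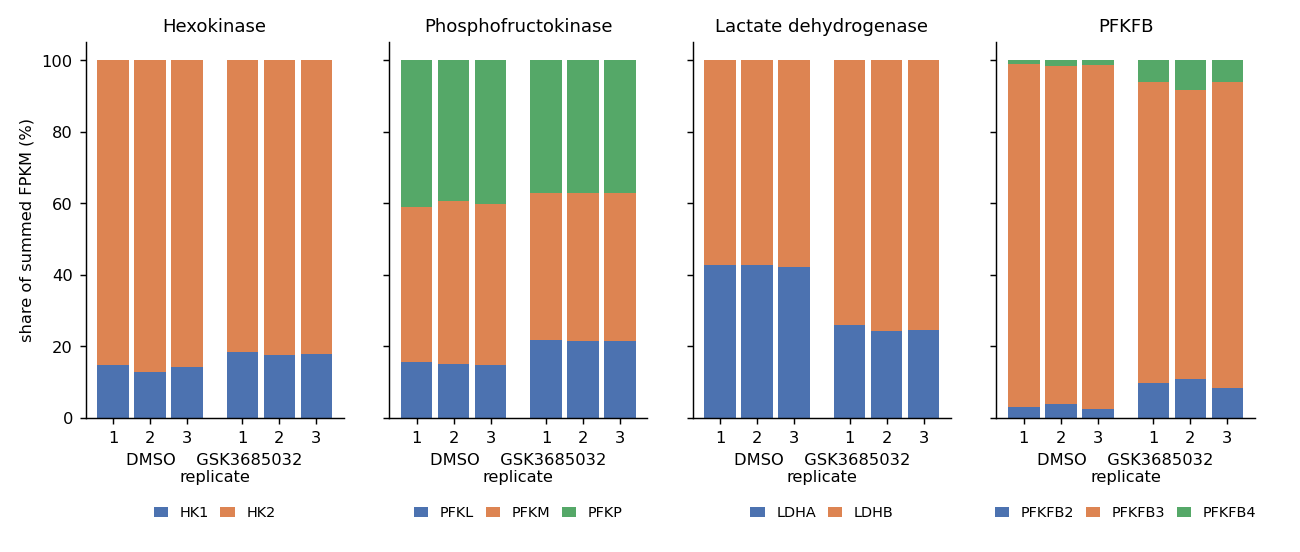
Share of each paralog in the summed FPKM of its enzyme in every library, for hexokinase, phosphofructokinase, lactate dehydrogenase and PFKFB. LDHB takes 57.2% to 57.8% of lactate dehydrogenase under DMSO and 74.2% to 75.9% under the inhibitor, while HK2 takes at least 81.7% of hexokinase in all 6 libraries.

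Summed over the 17 enzymes, FPKM was 2656 ± 37.7 under DMSO and 2785 ± 80.4 under the inhibitor, without overlap. As a share of all counts the enzymes held 1.07% ± 0.00582 and 1.03% ± 0.0306, and those ranges overlapped. GAPDH made up 38.96% ± 0.870 of the enzymes' FPKM under DMSO and 54.5% ± 0.685 under the inhibitor. Without inhibitor replicate 1 the difference in summed FPKM was 82.0, against 128 with all libraries. Without GAPDH the sum went from 1621 ± 11.2 to 1268 ± 25.4 FPKM, 0.782 times the DMSO level. The ratio of GAPDH to PGAM1 went from 11.04 ± 0.417 to 32.7 ± 1.67, and that of GAPDH to ENO1 from 2.08 ± 0.09996 to 5.17 ± 0.0962. In poly(A) RNA from bulk culture, fewer cells expressing a gene and less RNA per cell cannot be told apart.

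Several enzymes have processed pseudogenes whose reads could be confused with theirs. Rows named as pseudogenes of GAPDH (25 rows) held 0.276% of the GAPDH count under DMSO and 0.144% under the inhibitor. Pseudogenes of PGAM1 held 3.49% and 2.42%, those of TPI1 1.5% and 1.39%, and those of LDHA 0.469% and 0.33%.

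The regulators act at entry to and exit from glycolysis. The PFKFB enzymes make and remove fructose 2,6-bisphosphate, the activator of phosphofructokinase. PFKFB3, the isoform with the strongest kinase activity, supplied most of the message at 10.59, 8.67 and 10.64 FPKM under DMSO and 8.34, 7.98 and 8.90 under the inhibitor. Its groups overlap. It was called lower (log2 change -0.25 with an SE of 0.081, adjusted p = 0.0210 by edgeR), and the call ended without DMSO replicate 1 or 3 or inhibitor replicate 1 or 2 (adjusted p 0.0501 to 0.0772), with upper-quartile scaling (0.421), the FPKM filter (0.106), quantile normalization (0.365) and inhibitor replicate 1 alone (0.167). PFKFB4, a hypoxia-inducible isoform, rose 4.57-fold from 0.129, 0.150 and 0.165 FPKM to 0.607, 0.816 and 0.639 (edgeR adjusted p = 1.78e-05). PFKFB2, the heart type isoform, rose 3.08-fold from 0.321, 0.342 and 0.260 FPKM to 0.946, 1.06 and 0.863 (edgeR adjusted p = 1.77e-05).

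Neither minor isoform overlaps between groups, but both stayed near or below 1 FPKM. PFKFB2 overlaps YOD1 on the other strand (a mean of 5.46 and 4.30 FPKM), and PFKFB4 overlaps UCN2 on the same strand (0.0715 and 0.961 FPKM), whose row was also higher under the inhibitor. The PFKFB3 share of the 3 isoforms went from 95.6% ± 0.824 to 83.6% ± 2.38. With quantile normalization PFKFB4 was not called (log2 change 0.08, limma adjusted p = 0.618), whereas it was called by limma on the same log2(FPKM + 0.5) scale without that step (0.87, adjusted p = 0.000225). The cause was not tested.

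The pyruvate dehydrogenase kinases act at the exit by blocking entry of pyruvate into mitochondrial acetyl-CoA synthesis. PDK1, a HIF target, fell by 24.6%, from 3.24, 2.99 and 2.99 FPKM to 2.38, 2.30 and 2.29 (log2 change -0.41 with an SE of 0.058, adjusted p = 0.000167 by edgeR). PDK3 stood at 1.09 ± 0.116 and 0.855 ± 0.0846 FPKM (log2 change -0.36 with an SE of 0.114, adjusted p = 0.0184 by edgeR). The PDK3 call ended without DMSO replicate 2 or inhibitor replicate 2 (adjusted p 0.0747 and 0.0626), with inhibitor replicate 1 alone (0.206), with upper-quartile scaling (0.169) and by limma on log2 FPKM (0.0688 to 0.0712 over 3 pseudocounts).

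Among the oxygen sensors, HIF1A, the message for HIF-1α, fell by 41.7%. It measured 81.3, 86.1 and 79.5 FPKM under DMSO and 44.8, 48.3 and 51.6 under the inhibitor (log2 change -0.78 with an SE of 0.052, adjusted p = 1.12e-06 by edgeR). All DMSO libraries were far above all inhibitor libraries. HIF-1α is controlled mainly through protein stability, which RNA does not measure. HIF1A-AS1, on the other strand, overlaps HIF1A and went from a mean of 2.08 to 0.368 FPKM. EGLN1, the main HIF prolyl hydroxylase, rose 1.44-fold from 9.19, 8.20 and 7.26 FPKM to 11.2, 12.5 and 12.1 (edgeR adjusted p = 0.000251). EGLN3, an inducible hydroxylase, had 4 counts over the DMSO libraries and 16 over the inhibitor libraries, which at about 4 counts per read pair is too little to compare.

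The collagen prolyl 4-hydroxylase subunits are HIF targets that modify procollagen in the endoplasmic reticulum. P4HA1 rose from 7.66, 7.33 and 7.36 FPKM to 12.1, 12.5 and 12.4, 1.65-fold (log2 change 0.72 with an SE of 0.057, adjusted p = 3.06e-06 by edgeR). P4HA2 had 0 counts in every DMSO library and 12, 37 and 14 with the inhibitor, at least 6.13-fold higher against a floor of 12 counts (3 read pairs) over the group (edgeR adjusted p = 0.000976). Without inhibitor replicate 2 that bound was 3.84-fold. P4HA2 supplied at most 0.467% of the summed FPKM of the pair in any library.

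Both secreted signals rose. VEGFA, the main growth factor for blood vessels, went from 14.5, 12.98 and 15.2 FPKM to 22.5, 21.7 and 23.2, 1.57-fold (log2 change 0.65 with an SE of 0.059, adjusted p = 8.08e-06 by edgeR). ADM, the vasodilator peptide adrenomedullin, had 0 counts in every DMSO library and 171, 153 and 115 with the inhibitor. That is 1.17, 1.06 and 0.826 FPKM, at least 42.7-fold higher against the same floor (edgeR adjusted p = 4.14e-06). Under DMSO, VEGFA was thus expressed and ADM was not detected at this depth.

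BNIP3 and BNIP3L, receptors that mark mitochondria for autophagy, moved in opposite directions. BNIP3 (chromosome 10, 131967684 to 131981965) measured 0.203, 0.0644 and 0.384 FPKM under DMSO and 2.64, 3.09 and 2.24 under the inhibitor, a 12.1-fold rise (log2 change 3.59 with an SE of 0.475, adjusted p = 0.000105 by edgeR). DMSO libraries differed widely among themselves, from 22 to 112 counts, yet all lay below the inhibitor libraries (531 to 772 counts). Without DMSO replicate 3 the fold was 19.7, and leaving out any 1 library gave 8.86-fold to 19.7-fold. The table holds 23 rows named as BNIP3 pseudogenes, which summed to 2483 counts under DMSO and 1414 under the inhibitor. Those rows were lower in sum where BNIP3 was higher, and the split of reads among the copies was not tested. BNIP3L fell by 15.6%, from 11.8 ± 0.449 to 10.1 ± 0.762 FPKM (log2 change -0.24 with an SE of 0.060, adjusted p = 0.00536 by edgeR). That call ended with upper-quartile scaling (log2 change -0.07, adjusted p = 0.339), the FPKM filter (-0.15, adjusted p = 0.0587) and quantile normalization (-0.06, limma adjusted p = 0.441). With DMSO, BNIP3L exceeded BNIP3 in every library, and it still did with the inhibitor.

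NDRG1, a stress-induced differentiation gene, showed the largest fold of the members with DMSO counts. It measured 0.0389, 0.0315 and 0.0459 FPKM (30, 35 and 41 counts) under DMSO and 1.35, 1.32 and 1.25 FPKM under the inhibitor. The rise was 31.5-fold, with replicates close in both groups (log2 change 4.98 with an SE of 0.167, adjusted p = 2.30e-08 by edgeR). At about 4 counts per read pair the DMSO level rests on few read pairs, and the fold may be less certain than this SE. With counts divided by 4 the log2 change was 4.965. DDIT4, an inhibitor of mTORC1 signalling, rose 1.32-fold, from 48.7, 43.2 and 49.6 FPKM to 67.3, 54.2 and 66.5 (edgeR adjusted p = 0.00269). Inhibitor replicate 2 lay lower than the other inhibitor libraries for DDIT4, though above every DMSO library.

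ANKRD37, an ankyrin repeat protein induced by HIF-1, went the other way. Its levels were 1.31, 0.917 and 1.23 FPKM under DMSO and 0.505, 0.734 and 0.760 under the inhibitor (log2 change -0.79 with an SE of 0.250, adjusted p = 0.0189 by edgeR). The call ended without DMSO replicate 1 or 3 or inhibitor replicate 1 (adjusted p 0.0511 to 0.0664) and with upper-quartile scaling (0.0542). ANKRD37 overlaps UFSP2 on the other strand, at a mean of 7.19 and 7.91 FPKM.

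**Figure D4:**
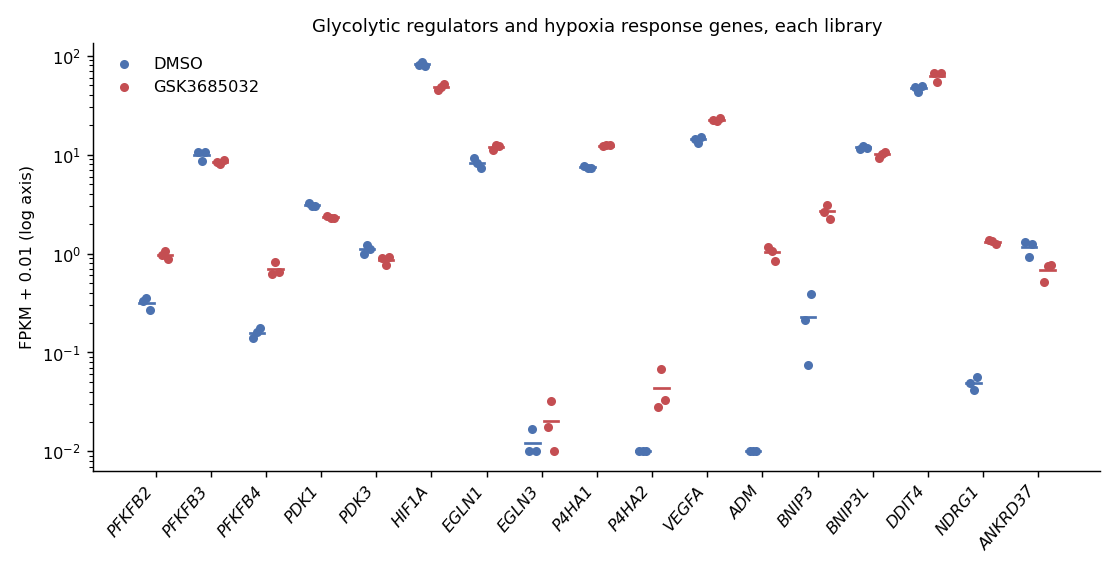
FPKM plus 0.01 of the 5 regulators and 12 hypoxia response genes in each library on a log axis, with DMSO in blue, GSK3685032 in red and a line at each group mean. NDRG1, BNIP3 and ADM are under 0.4 FPKM in every DMSO library and between 0.826 and 3.09 with the inhibitor, while HIF1A falls from 79.5 to 86.1 FPKM to 44.8 to 51.6.

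Among hypoxia response genes with DMSO counts, the 2 called with a change of at least 2-fold (NDRG1 and BNIP3) had DMSO means of 0.0388 and 0.217 FPKM, while EGLN1, P4HA1, VEGFA and DDIT4, with DMSO means of 7.45 to 47.2 FPKM, rose between 1.32-fold and 1.65-fold. The summed FPKM of the class overlapped between groups (173 ± 1.65 and 173 ± 7.96), while its share of all counts went from 0.0911% ± 0.00119 to 0.0957% ± 0.00347 without overlap. HIF1A and DDIT4, which moved in opposite directions, had the highest levels in the class.

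Other genes of both pathways were taken from fixed lists. On the glycolysis side 43 of 46 names were found and 33 were tested, of which 12 were higher and 11 lower (median log2 change 0.01), beside 38.1% higher and 27.3% lower over all tested genes. BPGM, which makes 2,3-bisphosphoglycerate and bypasses PGK1, rose from 4.90 ± 0.320 to 12.1 ± 0.945 FPKM (2.46-fold, edgeR adjusted p = 8.36e-07). TIGAR, which removes fructose 2,6-bisphosphate, rose 1.51-fold to 6.43 ± 0.180 FPKM (edgeR adjusted p = 1.11e-05). GALM, galactose mutarotase, rose 10.8-fold to 1.83 ± 0.199 FPKM (edgeR adjusted p = 4.48e-06). TXNIP and ARRDC4, arrestin family genes that limit glucose uptake, parted: TXNIP fell from 221 ± 6.65 to 111 ± 9.17 FPKM (edgeR adjusted p = 8.12e-07), while ARRDC4 went from 0 counts to 1.52 ± 0.315 FPKM, at least 109-fold higher (edgeR adjusted p = 9.31e-07). MPC2, a subunit of the mitochondrial pyruvate carrier, fell from 25.3 ± 2.68 to 10.6 ± 0.243 FPKM (edgeR adjusted p = 6.06e-07). Smaller falls were seen for PDP2, the phosphatase that opposes the PDK enzymes (3.98 ± 0.251 to 2.31 ± 0.0836 FPKM, edgeR adjusted p = 1.18e-05), and the muscle enolase ENO3 (3.34 ± 0.291 to 1.99 ± 0.260 FPKM, edgeR adjusted p = 0.000526).

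On the hypoxia side 59 of 60 names were found and 50 were tested, of which 26 were higher and 18 lower, beside the same background of 38.1% and 27.3% (median log2 change 0.16, against 0.14 over all tested genes). On each side 3 of the higher genes had 0 DMSO counts and could pass the filter only through the inhibitor libraries. AKAP12, a scaffold for protein kinase A, rose from 0.0276 ± 0.0114 to 18.8 ± 0.521 FPKM (669-fold, edgeR adjusted p = 2.57e-10). STC2, a secreted glycoprotein, went from 8 counts over the DMSO libraries to 12.6 ± 0.0868 FPKM (edgeR adjusted p = 2.72e-09). Those 8 counts are under the floor of 12, so STC2 too could pass the filter only through the inhibitor libraries. RAB20, a small GTPase, reached 1.35 ± 0.349 FPKM from 0, at least 36.3-fold higher (edgeR adjusted p = 9.49e-06).

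The falls on that side were smaller. RRAGD, a GTPase of amino acid sensing, fell from 6.29 ± 0.449 to 2.06 ± 0.159 FPKM (edgeR adjusted p = 2.96e-07). The fucosyltransferase FUT11 fell from 1.82 ± 0.152 to 0.831 ± 0.106 FPKM (edgeR adjusted p = 0.000166) and the demethylase family gene JMJD6 from 14.7 ± 0.564 to 7.87 ± 0.411 (edgeR adjusted p = 9.31e-07). RBX1, a subunit of the ubiquitin ligase that degrades HIF-1α, fell from 11.9 ± 0.280 to 6.56 ± 0.507 FPKM (edgeR adjusted p = 3.69e-06).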

How the data were processed

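RNA was measured in 6 libraries of SU-DHL-8. Libraries were made from oligo(dT)-selected RNA with a dUTP second strand, per the labels' protocols. The submitters' processing notes list edgeR, DESeq2, StringTie 2.1.6, HISAT2 2.2.1 and cutadapt 1.9 without saying what each did. The notes name mm10, but all 34 members carry human IDs that overlap their GRCh38 position in GENCODE 29. The authors deposited FPKM values and whole-number estimated counts, per the file headers. Counts of 4 were commoner (1320 genes in a library on average) than counts of 3 (725.8) or 5 (474.5), so 4 counts were taken as about 1 read pair.

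Groups follow the titles. Every pair of libraries within a group differed, by 3.3 to 6.83 times the sampling variance of read pairs. Counts as deposited were tested with the quasi-likelihood method of edgeR 4.0.16 in R 4.3.3, with filterByExpr, TMM factors, Benjamini-Hochberg adjustment over 20783 genes and a threshold of 0.05, two-sided. SE is the log2 fold change over the square root of F. Floors cover counting error only. Alternatives were DESeq2 1.42.0, limma 3.58.1 on log2 FPKM with a pseudocount, other scalings and filters, counts divided by 4, a replicate block, inhibitor replicate 1 alone and leaving out each library. The fit was tested on simulated data. Named genes outside the members were up to 4 called genes per list side and direction with the largest change among those at a mean of at least 1 FPKM in a group, of which 1 is not reported here. Members, lists and rules were chosen with earlier results of these data known, and the background of genes at a mean of at least 10 FPKM was added after seeing the data.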

Additional observations from a re-analysis of the deposited data

How the results depend on the processing

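Of 33 members tested, 20 kept their direction and call in every alternative that gave a value: HK1, PFKL, GAPDH, LDHB, PFKFB2, EGLN1, P4HA1, P4HA2, VEGFA, ADM, BNIP3, DDIT4 and NDRG1 higher, and GPI, TPI1, PGAM1, ENO1, LDHA, PDK1 and HIF1A lower. Signs turned for PFKM (0.0848 with upper-quartile scaling, 0.0096 with testing restricted to genes that reached 1 FPKM in 3 or more libraries, 0.12 with quantile normalization), PFKP (0.08, 0.0041 and 0.11) and ALDOC (0.0426 with upper-quartile scaling).

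That FPKM filter left fewer genes to test. Of all genes 12395 were tested and 4826 were higher, and of the other pathway genes 63 were tested and 25 were higher. Only 2 regulators were tested, of which 0 were higher and 1 lower. Of 8 hypoxia response genes tested, 1 was lower. By limma on log2 FPKM, 14807 genes were tested and 5260 were higher (5233 and 5259 with pseudocounts of 0.1 and 1). After quantile normalization 4853 of the 14807 were higher, and 1 regulator was higher. With upper-quartile scaling 1 regulator and 1 hypoxia response gene were lower, and with inhibitor replicate 1 alone 1 regulator was lower.

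The enzymes' median log2 change was 0.07935 with upper-quartile scaling, 0.006855 with the FPKM filter, -0.0807, -0.0819 and -0.0792 by limma with pseudocounts of 0.5, 0.1 and 1, 0.1153 after quantile normalization, -0.0631 with counts divided by 4 and -0.0719 with inhibitor replicate 1 alone. The regulators' median was -0.0784 with upper-quartile scaling and -0.0878 after quantile normalization. The hypoxia response median was 0.825 with upper-quartile scaling, 0.693 without a filter, 0.689 with the FPKM filter, 0.580, 0.598 and 0.560 by limma with pseudocounts of 0.5, 0.1 and 1, 0.751 after quantile normalization, 0.607 with inhibitor replicate 1 alone and 0.531 over the 9 genes with DMSO counts, an alternative added after seeing the data.

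Leaving out 1 library gave medians of -0.144 to -0.0644 for enzymes, -0.287 to -0.202 for regulators and 0.593 to 0.699 for hypoxia response genes, with 1 to 3 regulators lower, 2 to 3 hypoxia response genes lower and 4 to 6 enzymes higher. The LDHB share rose by 17.7 percentage points (17.4 to 18.2 without 1 library, 16.8 with inhibitor replicate 1 alone, 19.9 from counts), the PFKL share by 6.40 (7.11 from counts), and the PFKFB3 share fell by 11.96 (decreased by 15.1 from counts). The enzymes' summed FPKM rose by 128 (82.0 without inhibitor replicate 1, 82.0 to 152 over the libraries left out, 221 with inhibitor replicate 1 alone).

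The titles number libraries 1 to 3 in both groups, but same-numbered libraries did not deviate together (correlations 0.00049, 0.0211 and 0.00268), so the number was not taken as a pairing. The replicate block ended the calls of ALDOA, PGK1 and ENO2 (log2 changes 0.10, 0.15 and -0.77) and changed no other member's call; 7448 genes were higher and 5368 lower. Low counts limit ENO2, EGLN3, P4HA2 and the DMSO levels of BNIP3 and NDRG1.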
